A study of Rattus norvegicus with 12 samples.

Results

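H3K27ac-alone regions were the merged regions that carried a peak of H3K27ac and no peak of the other 2 acetylation marks of the series, and there were 1714 of them among 23333 merged regions. H3K27ac is acetylation of lysine 27 of histone H3. The other marks were H3K23ac and H4K5ac, acetylation of lysine 23 of histone H3 and of lysine 5 of histone H4. Peaks of all 12 lists were joined wherever they overlapped by at least 1 bp. A joined region was kept when at least 1 H3K27ac library had a peak in it and no H3K23ac or H4K5ac library did. Of the 16864 regions with H3K27ac, 10.2% were kept and 15150 also carried another mark. The regions were thus chosen by the presence and absence of peaks in these same lists, so their lack of the other marks is a description and not a result.

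The libraries came from primary vascular smooth muscle cells of the rat, which form the contractile layer of arteries, in a series on aneurysmal aortas. They were made by CUT&Tag, in which an antibody against a chromatin mark tethers a transposase that cuts and tags the DNA beside it. Each mark was profiled in 2 libraries labelled NC and 2 labelled SIANK. The labels spell out neither name and give no strain, age or dose, so the conditions are named here as labelled. The labels do not say whether libraries 1 and 2 of a condition came from separate cultures or animals, and p-values therefore measure the spread between these libraries only, which may be technical. The lists hold positions and lengths of peaks, without heights or read counts, so the depth is unknown, and fewer marked cells cannot be told apart from less mark per cell.

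H3K27ac is placed on nucleosomes by acetyltransferases of the CBP family and is found at active promoters and active enhancers. It is widely used to tell active enhancers from poised ones, and in smooth muscle it marks the regulatory regions of contractile genes. H3K23ac and H4K5ac also occur in open, transcribed chromatin, and several acetylated lysines commonly lie on the same nucleosomes. No gene names, promoters or smooth muscle markers are given for the regions below. The annotation at hand was on GRCr8, and 2696 of 94690 peaks on 15 chromosomes lay beyond its last gene. The peaks may therefore not be on that assembly, though peaks past the last gene do not settle it. Regions are given by position on a build that is not given in the sources used here.

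Most H3K27ac-alone regions were found in 1 library. Of the 1714 regions, 1488 (86.8%) had a peak in 1 H3K27ac library, 205 in 2, 17 in 3 and 4 in all 4. Only 226 regions (13.2%) were thus found in at least 2 libraries, against 78.5% of the 15150 H3K27ac regions that carried another mark. Of the 5860 H3K23ac-alone regions 15.4% were found in at least 2 libraries of their mark, and of the 493 H4K5ac-alone regions 26.4%.

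The share of H3K27ac regions that stood alone was lower with each further library that held the region. It was 31.4% of 4746 regions found in 1 H3K27ac library (exact 95% binomial interval 30.0 to 32.7), 2.59% of 7919 in 2 (2.25 to 2.96), 0.857% of 1983 in 3 (0.50 to 1.37) and 0.181% of 2216 in all 4 (0.0492 to 0.462). These intervals, like those below, cover counting error over regions only. Sorting H3K27ac regions by the number of H3K23ac libraries read the same relation from the other side, so it is not separate support. At least 2 H3K27ac libraries held 13.2% of the regions alone, 35.6% of those with H3K23ac in 1 library, 59.7% with 2, 81.2% with 3 and 98.1% with 4. The median H3K27ac peak length was 431 bp in regions alone and 479, 558, 653.5 and 992 bp in the others, in the same order. The regions without H3K23ac lay at the low end of both gradients, which are descriptions with no test.

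A single H3K23ac library kept many regions out of the set. Of 2317 H3K27ac regions with H3K23ac in 1 library, 1627 had it in SIANK library 2, 403 in SIANK 1, 194 in NC 1 and 93 in NC 2. SIANK library 2 had the most H3K23ac peaks (17141). Without that list there were 3390 H3K27ac-alone regions in place of 1714, of which 25.2% were found in at least 2 H3K27ac libraries. Without any other H3K23ac list there were between 1813 and 2135.

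The rule's limit was an overlap of 1 bp. Just inside it lay the region at chr2:11757639-11758051, 5 bp from an H3K23ac region, with peaks of 353 bp in NC 2 and 392 bp in SIANK 2. Regions at chr13:94917730-94918443 and chr13:104993095-104993790 lay 10 and 12 bp away. Just outside it lay H3K27ac regions at chr3:148188412-148188829, at chr2:25287896-25288240 and at chr7:120618736-120619311, which shared 1, 2 and 2 bp with H3K23ac and were each found in 1 H3K27ac library.

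The 4 H3K27ac lists contributed unequally. NC library 1 had 96 peaks in H3K27ac-alone regions, NC 2 had 610, SIANK 1 had 210 and SIANK 2 had 1049. Libraries numbered 2 were high in both conditions and libraries numbered 1 low, so the conditions overlapped. These peaks were 3.63% of the 2644 peaks of NC 1 (exact 95% binomial interval 2.95 to 4.42), 4.35% of the 14034 of NC 2 (4.02 to 4.70), 4.35% of the 4823 of SIANK 1 (3.80 to 4.97) and 6.81% of the 15413 of SIANK 2 (6.41 to 7.21). In shares the groups did not overlap, but NC 2 and SIANK 1 were level to 3 digits and SIANK 2 alone stood apart.

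**Figure D1:**
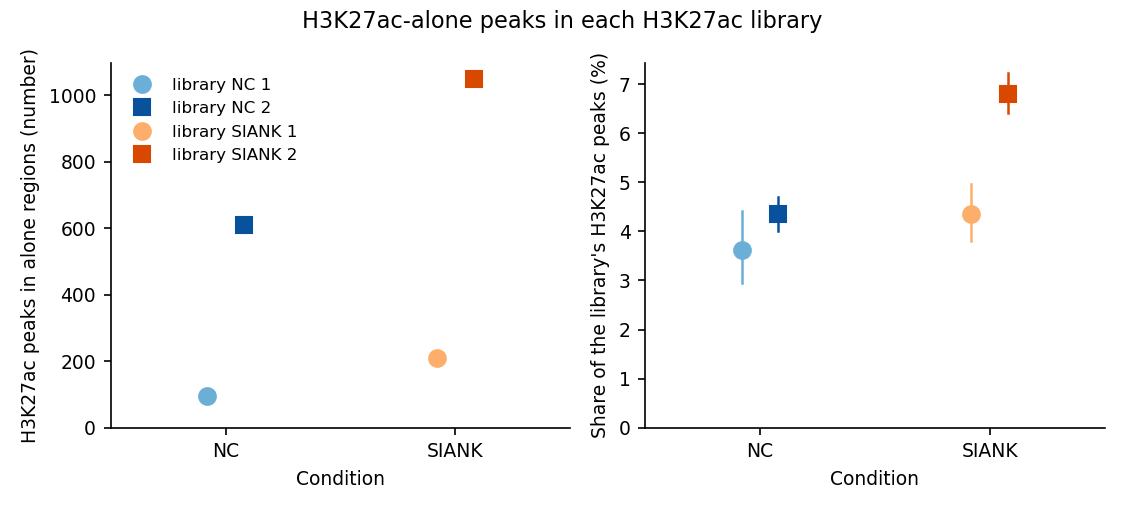
Number (left) and share in percent (right) of H3K27ac peaks that lay in H3K27ac-alone regions, for NC and SIANK. Each point is 1 library, circles are number 1 and squares number 2, and lines at right are exact 95% binomial intervals. Numbers run from 96 (NC 1) to 1049 (SIANK 2) and follow the library number, and the share of SIANK 2 (6.81%) lies above the other 3.

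More H3K27ac-alone peaks were listed in SIANK than in NC within each library number, but no test of 2 against 2 libraries could reach the threshold of 0.05. The mean number of H3K27ac-alone peaks was 629.5 ± 593 in SIANK and 353.0 ± 363 in NC (SD, n = 2 each), a ratio of geometric means of 1.94 (log2 0.96, SE 1.77), and an exact permutation of the condition labels gave a two-sided p of 0.667. The mean share was 5.58% ± 1.73 in SIANK and 3.99% ± 0.506 in NC (SD, n = 2 each), a difference of 1.59 percentage points with a two-sided exact permutation p of 0.33, below which a design of 2 against 2 libraries cannot go. The SIANK over NC ratio of H3K27ac-alone peaks was 2.19 between the number 1 libraries (log2 1.13) and 1.72 between the number 2 libraries (log2 0.78). The SE and the p of the unpaired comparison hold the difference between numbers as well, and with labels swapped within a number only the smallest exact permutation p is 0.5. For H3K27ac peaks in regions with another mark these ratios were 1.81 and 1.07. Dropping NC 1 reversed the log2 ratio (−0.37), as did dropping SIANK 2 (−0.19), and it was 2.30 without NC 2 and 2.09 without SIANK 1. The difference in share turned to −0.55 percentage points when each list was held to its 2644 longest peaks. That setting kept the whole list of NC 1 and left no H3K27ac-alone peak in NC 2 or SIANK 2. The value thus sets all peaks of NC 1 against the longest of SIANK 1, and it does not decide the direction between conditions.

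Few H3K27ac-alone regions followed the condition. A region was counted as gained when both SIANK and neither NC library of H3K27ac had a peak, and as lost in the reverse case. Of all 16864 H3K27ac regions 0.854% were gained, and of the 1714 alone 15 were (0.875%), a share near that background. Lost regions were 0.0593% of all and 2 of those alone. When 1 H3K27ac library was left out and its partner stood for the condition, the counts of gained and lost regions were 23 and 450 without NC 1 and 18 and 37 without NC 2. They were 895 and 6 without SIANK 1 and 148 and 3 without SIANK 2. In the full lists, 2895 H3K27ac regions of any kind were held by SIANK 2 only and 1552 by NC 2 only. Of these, 875 and 448 were alone. Without the H3K23ac list of SIANK 2, 47 of 3390 H3K27ac-alone regions were gained. These counts have no share over all H3K27ac regions beside them, so they say nothing particular to the regions alone.

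By the rank of its peak lengths within the lists, the first gained region was chr14:34180003-34180656, with peaks of 625 bp in SIANK 1 and 647 bp in SIANK 2 and the nearest H3K23ac region 9.77 kb away. The second, at chr5:157358068-157359057, had peaks of 990 and 636 bp and lay 8.68 kb from H3K23ac. The third, at chr12:23081448-23082300, had peaks of 587 and 634 bp and lay 9.73 kb away. In the list where each ranked lower, the lengths of these 3 lay at percentiles 38.9, 37.9 and 37.5, so none was long in both lists. The fourth, at chr10:106234428-106235306, lay 236 bp from H3K23ac, and the last named, at chr17:1771226-1771772, lay 25.8 kb away. Both lost regions were on chromosome 1. The region chr1:177514229-177515200 had peaks of 364 bp in NC 1 and 857 bp in NC 2, and chr1:137199745-137200091 had peaks of 344 and 321 bp, near the short end of both lists.

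H3K27ac-alone regions of libraries numbered 1 were mostly not those of libraries numbered 2, although the number 2 lists held 14034 and 15413 H3K27ac peaks against 2644 and 4823. The part of list length in this split was not tested. In all, 206 of the 1714 regions were found in number 1 libraries only, 1465 in number 2 libraries only and 43 in both. Of the 96 H3K27ac-alone regions of NC 1, SIANK 1 also held 57 (59.4%), SIANK 2 held 14 (14.6%) and NC 2 held 12 (12.5%). The 2483 regions of NC 1 with another mark were found in SIANK 1, SIANK 2 and NC 2 at 95.8%, 95.7% and 93.6%. NC 1 thus shared its regions with all 3 lists where another mark was present, and mainly with the other short list where H3K27ac stood alone.

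The number 2 lists showed less sharing where H3K27ac stood alone. Of the 610 such regions of NC 2, SIANK 2 held 151 (24.8%) and SIANK 1 held 16 (2.62%). The 12716 regions of NC 2 with another mark were found in SIANK 2 at 90.5% and in SIANK 1 at 32.2%. Of the 210 H3K27ac-alone regions of SIANK 1, 57 (27.1%) were in NC 1, 30 (14.3%) in SIANK 2 and 16 (7.62%) in NC 2.

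Regions confined to the number 1 libraries stood alone more often than other H3K27ac regions. Of the 402 H3K27ac regions found in number 1 libraries only, 206 (51.2%) were alone, against 12.2% of 12025 found in number 2 libraries only and 0.969% of 4437 found in both. Regions in both number 1 and neither number 2 library made up 0.611% of all H3K27ac regions. There were 103 of them, and 41 (39.8%, exact 95% binomial interval 30.3 to 49.9) were alone. The reverse pattern, both number 2 and neither number 1 library, made up 44.9% of all H3K27ac regions, and 142 of those 7578 (1.87%) were alone. The 39.8% depended on the definition. With H3K27ac peaks of at least the median length (753.5 bp) it was 10.8%, and with lists of equal length, where more shared regions drop out of the number 2 lists, it was 3.35%. When H3K23ac and H4K5ac had to be found in 2 libraries to count, it was 69.2%, and without the H3K23ac list of SIANK 2 it was 60.0%. This grouping was chosen after its values were seen and has no test, since 1 library stands for each condition and number.

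**Figure D2:**
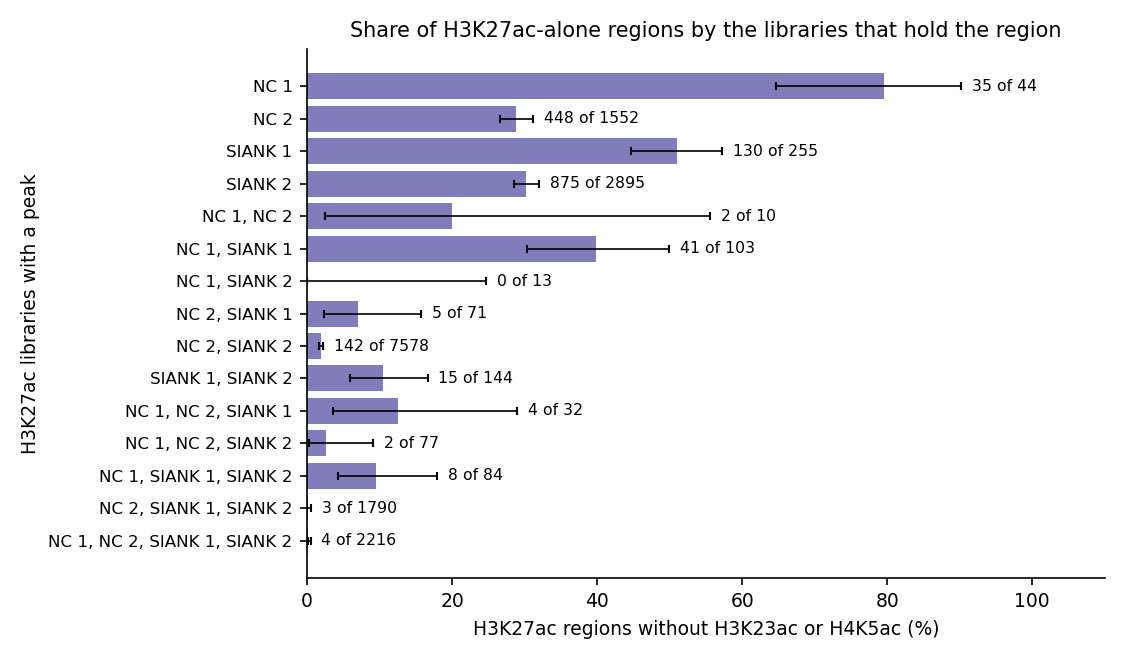
Percent of H3K27ac regions that carried neither H3K23ac nor H4K5ac, for each of the 15 combinations of H3K27ac libraries that held a peak. Bars are shares of regions, black lines exact 95% binomial intervals, and the text gives the counts. The share is 79.5% for NC 1 only and 51.0% for SIANK 1 only, 28.9% for NC 2 only and 30.2% for SIANK 2 only, and 0.181% where all 4 libraries had a peak.

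Among regions found in 1 library, the same split held in both conditions. The region stood alone in 35 of 44 cases for NC 1 (79.5%, exact 95% binomial interval 64.7 to 90.2) and in 130 of 255 for SIANK 1 (51.0%, 44.7 to 57.3). It stood alone in 448 of 1552 cases for NC 2 (28.9%, 26.6 to 31.2) and in 875 of 2895 for SIANK 2 (30.2%, 28.6 to 31.9). Both number 1 shares lay above both number 2 shares, while NC 2 and SIANK 2 had overlapping intervals. With 1 library per condition and number, these intervals do not compare NC with SIANK.

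H3K27ac-alone peaks were short, most of all in the number 2 lists. Their median length was 493 bp in NC 1, 413.5 bp in NC 2, 521.5 bp in SIANK 1 and 419 bp in SIANK 2. The other H3K27ac peaks of these libraries had medians of 613, 816, 692 and 825.5 bp. The log2 ratio of the medians was −0.31, −0.98, −0.41 and −0.98 in that order, with a mean of −0.67 ± 0.36 (SD over 4 libraries). A short peak has less chance to touch a peak of another mark, so length is not independent of how the regions were chosen and was not tested.

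Among long peaks, the share without another mark was higher in both number 1 libraries than in both number 2 libraries. Among the 2644 longest peaks of each list, 96 of NC 1 (its whole list), 66 of SIANK 1 (2.50%), 0 of NC 2 and 0 of SIANK 2 lay in H3K27ac-alone regions. The 0 of 2644 allows a share of up to 0.139% (upper bound of the exact 95% binomial interval). The shortest peak so taken was 343 bp in NC 1, 640 bp in SIANK 1, 1368 bp in NC 2 and 1442 bp in SIANK 2, so the lists were not matched in length. At a fixed length of 1000 bp or more, 5 of 437 peaks in NC 1 (1.14%) and 17 of 1153 in SIANK 1 (1.47%) were alone, against 5 of 4998 in NC 2 (0.100%) and 12 of 5507 in SIANK 2 (0.218%). Of those long peaks, 4 of the 5 in NC 1 and 16 of the 17 in SIANK 1 lay in regions that no number 2 library held.

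**Figure D3:**
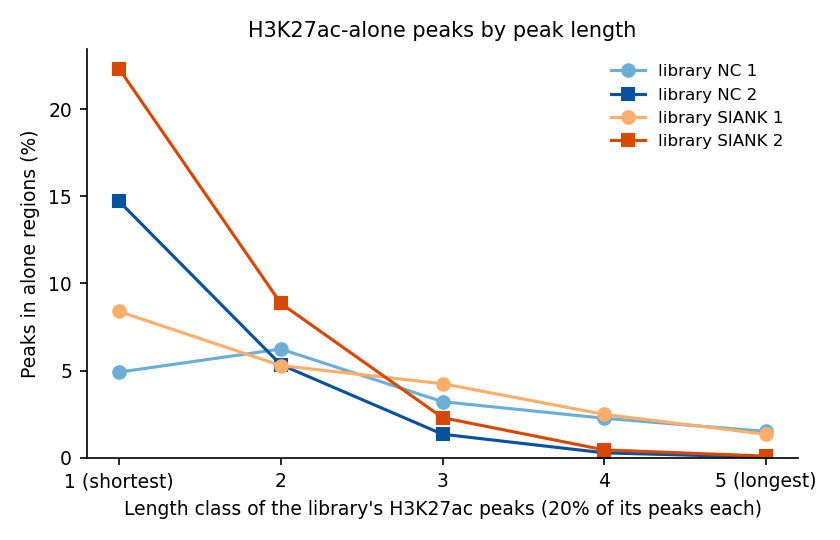
Percent of H3K27ac peaks that lay in H3K27ac-alone regions, for 5 length classes of 20% of a library's peaks each, from shortest to longest, with 1 line per library. In NC 2 and SIANK 2 the share drops from 14.7% and 22.3% in the shortest class to 0.0356% and 0.0973% in the longest. In NC 1 and SIANK 1 it runs from 4.91% and 8.39% to 1.51% and 1.35%.

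The decline with length was steep in the number 2 lists and shallow in the number 1 lists. The shortest 20% of the list held 67.7% of the H3K27ac-alone peaks of NC 2 and 65.6% of those of SIANK 2, but 27.1% of those of NC 1 and 38.6% of those of SIANK 1. In regions found in NC 1 only, peaks without another mark and peaks with one had medians of 462 and 429 bp. In regions found in NC 2 only the medians were 400 and 457 bp, in SIANK 1 only 483 and 503 bp, and in SIANK 2 only 411 and 491.5 bp.

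The 5 longest H3K27ac-alone peaks were all in SIANK library 1. The first was chr4:41363145-41364804, with peaks of 1206 bp in NC 1 and 1660 bp in SIANK 1 and none in the number 2 libraries. The nearest H3K23ac region was 619 kb away and the nearest acetylated region of any kind 316 kb away. The second, at chr19:53127792-53129339, had a peak of 1548 bp in SIANK 1 only. The other 3 were held by NC 1 and SIANK 1 and by neither number 2 library. They were chr1:39811370-39812891 (934 and 1522 bp), chr1:2822881-2824311 (652 and 1431 bp) and chr17:69203958-69205381 (901 and 1424 bp). Choosing the longest peaks fixed which of the number 1 libraries had the longer one, since no H3K27ac-alone peak of NC 1 exceeded 1206 bp.

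Most H3K27ac-alone regions lay within 10 kb of H3K23ac, a mark that 21083 of the 23333 merged regions carried. The median distance to the nearest H3K23ac region was 7.15 kb (quartiles 1.52 and 26.2 kb). In bins, 347 regions (20.2%) lay within 1 kb, 395 at 1 to 5 kb, 228 at 5 to 10 kb, 487 at 10 to 50 kb, 125 at 50 to 100 kb and 132 (7.70%) beyond 100 kb. Within 10 kb there were thus 970 (56.6%). Regions found in 1 library had a median distance of 6.95 kb and those in at least 2 libraries one of 8.17 kb, so finding a region again went with little change in distance.

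Regions with both marks had somewhat greater distances to their next H3K23ac region. For a closer comparison, the distance to the nearest other merged region with H3K23ac was taken for regions with both marks as well. The measures still differ, since a region with both marks already holds the H3K23ac peaks that overlap it. The part of this in the difference was not tested. Its median was 6.95 kb for H3K27ac-alone regions of 1 library and 7.98 kb for regions of 1 H3K27ac library that also carried H3K23ac. For regions of at least 2 H3K27ac libraries it was 8.09 and 9.91 kb. Within 10 kb lay 57.1% and 54.0% of the regions of 1 library. In the opposite direction, H3K23ac-alone regions had a median distance of 13.0 kb to the nearest H3K27ac region. These distances were described over regions and not tested.

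The distance differed with the library number. H3K27ac-alone regions of number 1 libraries only had a median distance of 15.3 kb to H3K23ac, those of number 2 libraries only 6.06 kb and those of both numbers 9.52 kb. By library the medians were 16.2 kb in NC 1, 12.8 kb in SIANK 1, 5.94 kb in NC 2 and 6.48 kb in SIANK 2, so both number 1 libraries lay above both number 2 libraries. Beyond 100 kb lay 16.0% of the 206 number 1 regions and 6.69% of the 1465 number 2 regions.

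**Figure D4:**
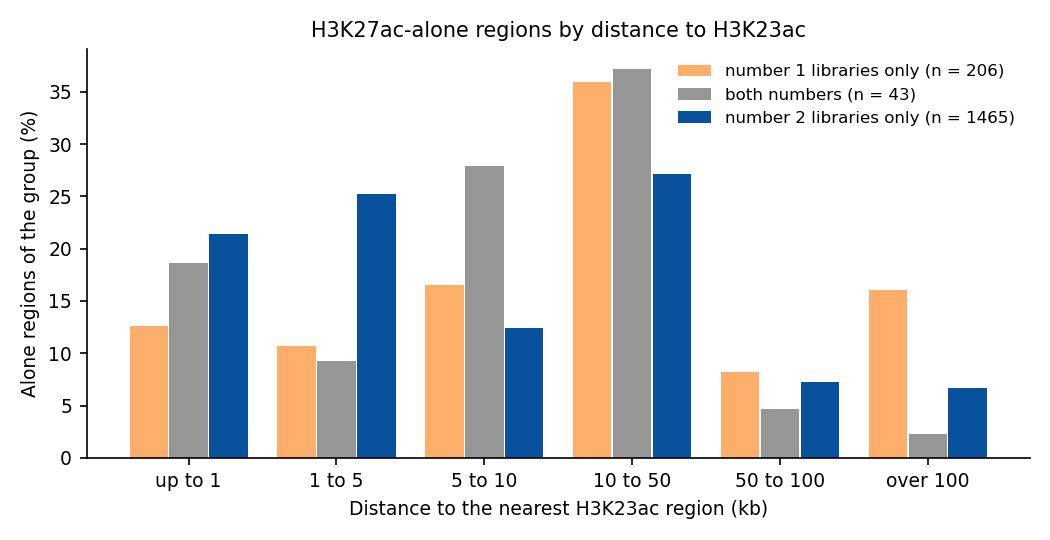
Percent of H3K27ac-alone regions in each bin of distance to the nearest H3K23ac region (kb), for regions of number 1 libraries only, of both numbers and of number 2 libraries only. Bars of a group add to 100%. Within 1 kb lie 12.6% of the number 1 regions and 21.4% of the number 2 regions, and beyond 100 kb 16.0% and 6.69%.

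Some regions far from H3K23ac were found in 2 libraries. The farthest such region was chr8:89122785-89123571, 1219 kb from the nearest H3K23ac region, with peaks of 422 bp in NC 2 and 374 bp in SIANK 2. No acetylated region of any mark lay nearer. The next, at chr5:114872585-114873247, lay 753 kb away, with peaks of 383 bp in NC 2 and 662 bp in SIANK 2. The third was the chromosome 4 region that also held the longest peak. The remaining ones were held by NC 1 and SIANK 1: chr4:156428054-156429054, with peaks of 612 and 1001 bp, and chr18:58325391-58326154, with peaks of 482 and 764 bp. They lay 580 and 451 kb from H3K23ac. All 5 were held by both libraries of 1 number and by neither of the other. So were 183 (81.0%) of the 226 H3K27ac-alone regions found in at least 2 libraries, 41 by number 1 and 142 by number 2. Of the 11892 H3K27ac regions with another mark in at least 2 H3K27ac libraries, 62 and 7436 showed these patterns. Most repeated regions with another mark thus followed the number too.

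The 4 regions found in every H3K27ac library were short to mid-length. The region at chr2:178680507-178681484 had peaks of 588, 462, 679 and 634 bp in NC 1, NC 2, SIANK 1 and SIANK 2 and lay 309 bp from H3K23ac. The region at chr8:119205740-119206824 had peaks of 461, 838, 831 and 369 bp and lay 66.0 kb from H3K23ac, the greatest distance among the 4. NC 2 and SIANK 1 had its longer peaks, 1 library of each condition and of each number. The region at chr5:126254119-126254952 had peaks of 369, 743, 694 and 589 bp and lay 16.1 kb away. The region at chr9:30160925-30161736 had peaks of 345, 668, 514 and 477 bp and lay 5.92 kb away. In each of the 4 regions the NC 1 peak was shorter than the SIANK 1 peak, while the NC 2 peak was the longer of the number 2 pair in 3 of them.

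**Figure D5:**
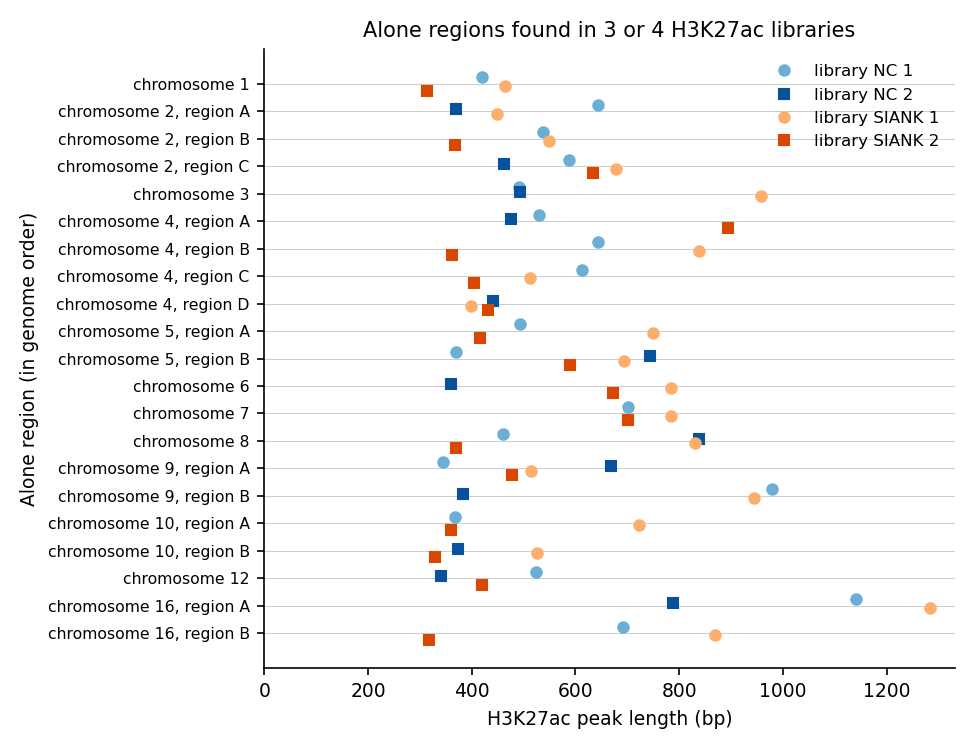
Length in bp of the H3K27ac peak in each library, for the 21 H3K27ac-alone regions found in 3 or 4 H3K27ac libraries, in genome order. Circles are number 1 libraries and squares number 2 libraries, and a missing symbol means that the list held no peak. On chromosome 16 the first region has peaks of 1141 bp (NC 1), 788 bp (NC 2) and 1283 bp (SIANK 1).

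Another 17 regions were found in 3 libraries. NC 1, SIANK 1 and SIANK 2 shared 8 of them, NC 1, NC 2 and SIANK 1 shared 4, NC 2, SIANK 1 and SIANK 2 shared 3, and NC 1, NC 2 and SIANK 2 shared 2. NC 1, the shortest list, was present in 14 of these 17. Of all H3K27ac regions of these combinations, 9.52% of 84, 12.5% of 32, 0.168% of 1790 and 2.60% of 77 were alone. The combination without NC 1 was thus the most common of these 4 among H3K27ac regions and the least often alone. The region at chr16:7520334-7521616 had the longest peaks of the 17, with 1141 bp in NC 1, 788 bp in NC 2 and 1283 bp in SIANK 1, and lay 2.40 kb from H3K23ac.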

How the data were processed

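The authors deposited 1 peak list per library. Per the file headers each gives chromosome, start, end and length in bp, with positions counted from 1. BWA and deepTools are named, per the submitters' processing notes. No peak carries a score. Build, peak caller, cut-off and control were not given in the sources used here. IgG libraries were not analysed here. Groups and replicate numbers came from the titles.

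Peaks of the 12 lists were merged at 1 bp of overlap. Merging matched bedtools 2.31.1 (23333 regions), and 100% of 1000 simulated H3K27ac-alone regions were recovered. The simulated regions lay far apart, with other marks either absent or clearly overlapping. Recovery thus checks the code only and not regions close to another mark. Distances count the bases between region ends. Libraries were the unit of the tests, which were exact permutations of condition labels (6 arrangements, threshold 0.05). Shares have exact (Clopper-Pearson) 95% intervals. Named regions were those of all 4 libraries, and up to 5 each that were gained, lost, farthest from H3K23ac (in at least 2 libraries) or longest, plus 3 on each side of the rule. Gained, lost and 4-library regions were ranked by their lowest within-library percentile of peak length. The regions and measures were chosen with earlier results of these data known. Scripts ran on scipy 1.17.1, numpy 2.4.6 and pandas 2.3.3 under Python 3.11.15, with figures from matplotlib 3.10.9.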

Additional observations from a re-analysis of the deposited data

How the results depend on the processing

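Of 107 untested values under alternatives, 65 stayed within 1.5 times a count or within the interval or SD of a share or ratio, and 42 moved beyond. Of 32 values of the SIANK against NC comparisons 3 reversed. No p there could reach the threshold, so the other 29 show direction only. Among them, the values with labels swapped within blocks repeat the main difference and could not reverse. Merging within 1000 bp put 45.2% of H3K27ac-alone regions within 10 kb of H3K23ac and 15.0% in at least 2 libraries. By definition, that setting takes out regions with H3K23ac within 1000 bp. Where other marks had to cover 50% of a region to exclude it, those shares were 67.4% and 18.9%, and 23 of 2300 regions were gained. Where the other marks counted only in 2 or more libraries, there were 4099 H3K27ac-alone regions, with shares of 81.3% and 25.7% and 53 gained. Both of these settings let in regions that overlap an H3K23ac peak, and such regions counted as within 10 kb. The shares of 67.4% and 81.3% thus do not describe regions without H3K23ac. Gained and lost counts in this paragraph have no share over all H3K27ac regions beside them, so they cannot show a rise or fall. With H3K27ac peaks of at least 753.5 bp there were 125 regions, 8.80% in at least 2 libraries, 0 gained and 0 lost, and a log2 length ratio of −0.31. With lists of equal length (2644 peaks) there were 132 regions, 43.9% within 10 kb and 23.5% in at least 2 libraries, 0 gained and 0 lost, a log2 length ratio of −0.29 and a difference in share, SIANK minus NC, of −0.55 percentage points. The ratio of peak numbers has no value there, since NC 2 and SIANK 2 then had no such peak. NC 1 kept its whole list in that setting, so the difference in share there sets all of NC 1 against the longest peaks of SIANK 1. The cause of these changes was not tested beyond the fewer or more peaks each setting leaves.

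Leaving out 1 H3K27ac or H3K23ac library at a time gave a log2 ratio of H3K27ac-alone peaks from −0.37 to 2.30 (reversed also at −0.19, without SIANK 2), a difference in share from 0.40 to 2.95 percentage points, 851 to 3390 regions, 17 to 895 gained and 2 to 450 lost. These gained and lost counts lack a share over all H3K27ac regions too. The percent in at least 2 libraries ran from 6.04 to 25.2, the percent within 10 kb from 50.8 to 58.0 and the log2 length ratio from −0.79 to −0.57. With a replicate block, labels swapped within a number only, the log2 ratio of 0.96 and the difference of 1.59 had exact permutation p = 0.5, the smallest that 4 arrangements give. Deviations of same-numbered libraries correlated at 0.25 over all 16864 H3K27ac regions and at −0.11 over the H3K27ac-alone regions, most of which are in 1 library. With crossed numbers, chosen after seeing the data, 0 H3K27ac-alone regions were held by just NC 1 and SIANK 2 and 5 by just NC 2 and SIANK 1. These patterns were rare among all H3K27ac regions too, with 13 and 71. By covered length in place of peak number the log2 ratio was 1.02 and the difference in share 0.76 percentage points. That difference was 3.64 where the other marks counted only in 2 or more libraries and 0.32 with H3K27ac peaks of at least 753.5 bp.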

Other observations

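H3K27ac-alone regions were spread over the chromosomes. Their share of a chromosome's H3K27ac regions ran from 8.70% on chromosome 9 (56 of 644) to 12.4% on chromosome 11 (59 of 474) over chromosomes 1 to 20 and X, with exact 95% binomial intervals of 6.64 to 11.1 and 9.61 to 15.8 that overlap. On chromosome Y 0 of 3 were alone. Few lay near each other: chaining regions with at most 10 kb between them put 212 (12.4%) into 101 groups, of which 10 held 3 regions and the rest 2. The median distance from one H3K27ac-alone region to the next was 164 kb, against 8.85 kb to the nearest other H3K27ac region and 248 kb to the nearest H4K5ac region.

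The H3K23ac region nearest to an H3K27ac-alone region carried H3K27ac about as often as H3K23ac regions at large. It did so for 67.4% of the 347 regions within 1 kb and 72.9% of the 395 at 1 to 5 kb. The share was 80.3% of the 228 at 5 to 10 kb and 76.0% at 10 to 50 kb. At 50 to 100 kb it was 69.6%, and beyond 100 kb 63.6% of 132. Of all 21083 merged regions with H3K23ac, 71.7% carried H3K27ac. The nearest region carried H3K27ac in a library that also held the H3K27ac-alone region for 57.6% of those within 1 kb. The neighbour had H3K23ac in all 4 libraries for 24.8% of those within 1 kb and for 38.2% of those at 5 to 10 kb, beside 35.1% of all. These shares were described over regions and not tested.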
